A study of Mus musculus with 4 samples.

Results

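The genes described here are 10 transcription factor genes that are used to tell naive, memory, effector and tissue-resident T cells apart: *Tcf7*, *Lef1*, *Bach2*, *Id3*, *Bcl6*, *Klf2*, *Id2*, *Zeb2*, *Prdm1* and *Zfp683*. They are a list of names, with no threshold on a measured value. Of the 19339 genes listed in each RNA-seq table, 9 are rows for these factors, and *Zfp683* was not analysed here. The cells were TCRαβ+CD8αα+ IELs, intraepithelial T cells of the small intestine with an αβ receptor and CD8α paired with itself in place of CD8β, sorted as CD45+CD4-TCRβ+CD8α+CD8β- from C57BL/6 mice. The control mice were Kdm6b F/F, with loxP sites around part of *Kdm6b* and no Cre. The mice labelled Kdm6b-deficient were Kdm6b F/F-CD4Cre, in which Cre is driven by *Cd4* sequences that are active from the thymus onward, so deletion is directed to all αβ T cells and not to IELs alone. *Kdm6b* encodes a histone demethylase that removes the repressive methyl mark of Polycomb from histone H3. Each group had 2 libraries, replicates 1 and 3, each of RNA pooled from 3 mice, and no age was given. The question here is which of these factors differed between the groups.

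T cells keep their state through a small set of opposed transcription factors. TCF-1 (*Tcf7*), LEF-1, BACH2, ID3, BCL6 and KLF2 are known for naive, memory and recirculating T cells, while ID2, ZEB2 and BLIMP-1 (*Prdm1*) are known for effector differentiation. BLIMP-1 and HOBIT (*Zfp683*) are also known for residency in tissue. IELs are tissue-resident lymphocytes with a cytotoxic profile, and TCRαβ+CD8αα+ IELs arise from thymic precursors and not from conventional T cells primed in an immune response.

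The 4 libraries were alike in FPKM total (578491 to 646671) and differed in content. FPKM counts the fragments of a gene, corrected for transcript length and for the size of the library. Summed FPKM of 8 of 8 T cell markers, all present in every library, was 4984 and 4068 in control replicates 1 and 3 and 4015 and 2814 in those labelled Kdm6b-deficient, replicates 1 and 3. All 22 epithelial markers were present at 1 FPKM or more in every library, and their summed FPKM was 1252 and 3993 in the controls and 3760 and 9938 in those labelled Kdm6b-deficient. *Cd8b1*, which the sort excluded, had 0 to 1.64 FPKM, whereas *Cd4*, also excluded by the sort, had 30.6 and 10.1 FPKM in the controls and 30.5 and 3.17 in those labelled Kdm6b-deficient. The sum of 4 plasma cell markers, mostly *Jchain* in replicates 1, was 23.1 and 54.5 FPKM in both replicates 1 and 2.48 and 2.17 in both replicates 3, and *Derl3* alone of the 4 did not have that order. The sum of 9 dendritic or myeloid markers, mostly *Lyz2*, was 420 and 291 FPKM in the controls and 468 and 686 in those labelled Kdm6b-deficient. Sums were 31.8 to 38.8 FPKM for B cell, 23.6 to 32.9 for NK cell or ILC, 9.14 to 12.5 for endothelial and 3.14 to 7.72 for stromal markers. Of the γδ T cell markers *Sox13* alone was measured, at 0.34 to 1.65 FPKM. *Kdm6b* itself had 16.5 and 16.0 FPKM in the controls and 18.2 and 11.1 in those labelled Kdm6b-deficient, so replicate 1 of that label was not below the controls (log2 fold change −0.18, standard error 0.29, limma adjusted p = 0.886). Which exons the deletion removes was not given in the sources used here, and an FPKM over the whole gene can include exons outside it. The libraries are therefore named by their label. In bulk RNA, fewer cells of a type and less RNA per cell cannot be told apart.

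*Id2* was the most abundant of the factors in every library and *Id3* followed it. In the controls the order of mean FPKM was *Id2*, *Id3*, *Tcf7*, *Prdm1*, *Lef1*, *Klf2*, *Bcl6*, *Zeb2* and *Bach2*, with both libraries of each gene above both of the next. *Id2* at 275 ± 27.4 FPKM (SD, n = 2) stood above 97.0% of the genes with a control mean of 1 FPKM or more, *Id3* above 90.8% and *Tcf7* above 80.9%. At the low end *Klf2* stood above 18.0% and *Zeb2* above 7.71% of those genes. In the libraries labelled Kdm6b-deficient the order of the first 4 was kept. *Klf2* then had a higher mean than *Lef1*, but the libraries of *Klf2* and *Lef1*, of *Lef1* and *Zeb2*, and of *Bcl6* and *Bach2* overlapped, so those neighbours were not separated.

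**Figure D1:**
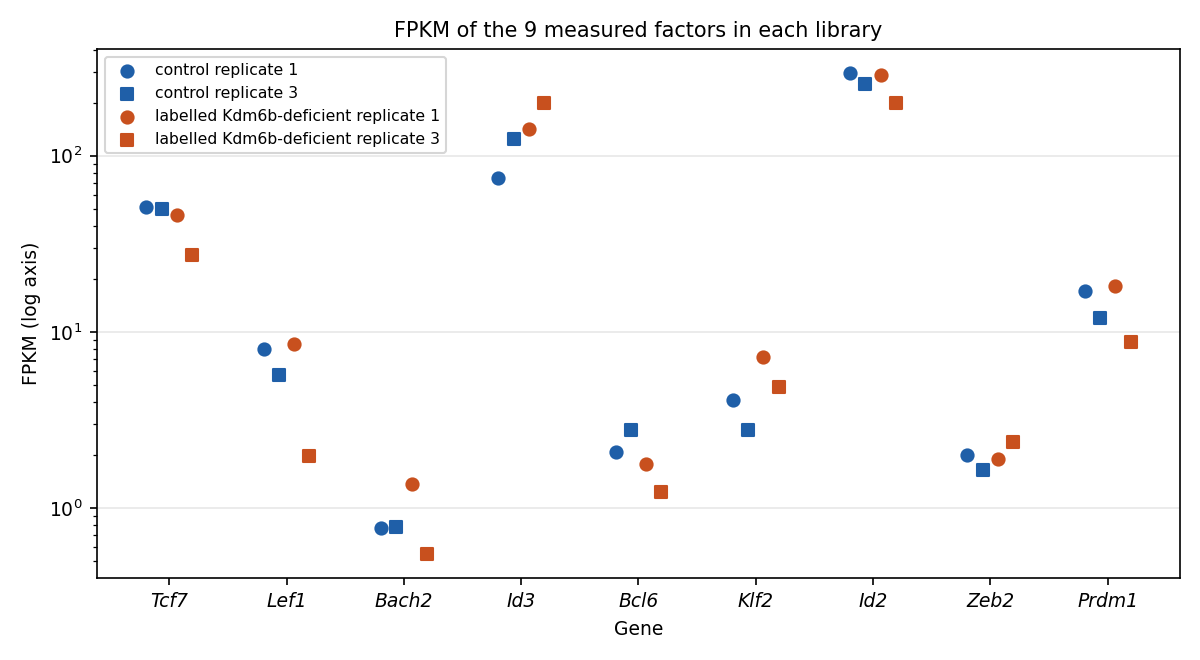
FPKM (log axis) of the 9 measured factors, 1 point per library, with circles for replicate 1 and squares for replicate 3 of the controls (blue) and of the libraries labelled Kdm6b-deficient (orange). *Id3* and *Klf2* have both orange points above both blue points, *Tcf7* and *Bcl6* have both below, and *Lef1*, *Id2* and *Prdm1* have both circles above both squares.

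No factor was called between the groups with group as the only term of the model. A fit that also held the replicate number, in which *Id3* was called, is given in the last section. Of the 8 factors that reached 1 FPKM in 2 or more libraries, 0 had an adjusted p under 0.05 in limma, where 0 of 12009 genes tested (0.0%) had one, and the smallest adjusted p of any gene was 0.193. An unadjusted p under 0.05 was found for 1 factor, *Id3*, against 5.35% of all genes tested (3.8% higher and 1.55% lower). Log2 fold changes are differences of group means of log2(FPKM + 1), labelled Kdm6b-deficient minus control, and 0 factors were beyond 1 in either direction, against 6.64% of all genes (6.2% above 1 and 0.441% below −1). By direction, 3 factors had a positive and 5 a negative value (50.1% and 49.9% of all genes), with a median of −0.18 beside 0.0 for all genes. In 4 factors the groups did not overlap, 2 higher and 2 lower, where 37.0% of all genes did not overlap (18.4% higher and 18.6% lower), so the count among the factors was within about 1 gene of the background share. For 1 gene taken alone, the exact permutation test over 2 and 2 libraries has 0.333 as its smallest two-sided p. All p-values measure the spread between these pools of mice.

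**Figure D2:**
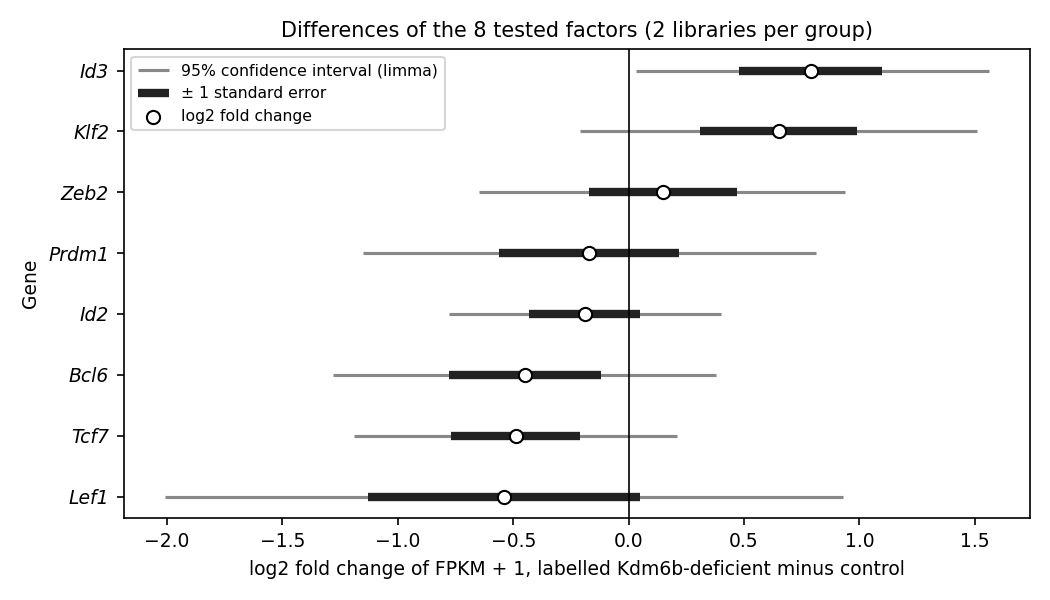
Log2 fold changes of the 8 tested factors (labelled Kdm6b-deficient minus control, log2 of FPKM + 1) with ± 1 standard error (thick bars) and the 95% confidence interval (thin bars) from limma, 2 libraries per group. The interval of *Id3* runs from 0.03 to 1.56 and those of the other factors include 0.

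*Id3* was the factor with the largest difference. ID3 is an inhibitor of DNA binding that pairs with E proteins and keeps them off DNA, and it is known in T cells for memory precursors and for the late steps of thymic selection. *Id3* (Entrez 15903, GRCm38 chromosome 4, 136143822 to 136145392) reached 74.9 and 124 FPKM in the controls and 142 and 199 FPKM in those labelled Kdm6b-deficient. Both libraries of that label were above both controls, but the gap between the groups was small against the spread between the controls. The log2 fold change was 0.79 (standard error 0.31, 95% interval 0.03 to 1.56), a fold of 1.73, with an unadjusted p = 0.0449 and an adjusted p = 0.755 in limma. The order of the libraries in *Id3* was close to that of the epithelial markers, whose mean level relative to control replicate 1 was 2.78 in control replicate 3, 2.59 in replicate 1 and 6.63 in replicate 3 of the libraries labelled Kdm6b-deficient. With that epithelial level as a covariate, which leaves 1 residual degree of freedom, the log2 fold change of *Id3* was 0.23 (adjusted p = 0.881). It was 1.18 with the libraries scaled to *Cd3* genes and *Ptprc*, where the median of all genes was 0.36, and it was 0.43 without control replicate 1 and 1.15 without control replicate 3. The epithelial level was on average higher in the libraries labelled Kdm6b-deficient, so the covariate fit cannot tell group from epithelial RNA. The part of epithelial RNA in the *Id3* values was not tested.

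*Klf2* was the other factor higher in both libraries labelled Kdm6b-deficient. KLF2 maintains quiescence and drives *S1pr1*, the receptor with which T cells leave tissue, and its loss is a known step toward residency. *Klf2* (Entrez 16598, chromosome 8, 72319062 to 72321654) reached 4.13 and 2.79 FPKM in the controls and 7.22 and 4.85 FPKM in those labelled Kdm6b-deficient. The lowest of the latter was above the highest control by less than the difference between the controls. On the log2 scale the difference was 0.65 (standard error 0.34, 95% interval −0.21 to 1.51), a fold of 1.57 (unadjusted p = 0.11, adjusted p = 0.755 in limma). Control replicate 3 was the lowest library, and with the epithelial level as a covariate the value was 1.08 (adjusted p = 0.307), while the part of other cells in the *Klf2* values was not tested. About 67 to 176 fragments stood behind each *Klf2* value, so counting error alone was 7.54 to 12.2% of a value. *S1pr1*, its target, had 10.4 and 5.26 FPKM in the controls and 19.1 and 4.08 in those labelled Kdm6b-deficient. *S1pr1* did not separate the groups.

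The bases before the start of *Id3* and *Klf2*, the 2 factors higher in both libraries labelled Kdm6b-deficient, are shown with those of *Id2*, the paralog of *Id3*, as the reference sequence of the promoters whose output was measured. Each is 250 bases long, 5′ to 3′ on the strand of the gene, from RefSeq on GRCm38.p6. Capitals mark CACCC, the core bound by KLF factors, or its reverse complement GGGTG in *Id3* and *Id2*, and in *Klf2* the motif of MEF2 factors, for which the *Klf2* promoter is known.
Id3, chr4:136143572-136143821, plus strand: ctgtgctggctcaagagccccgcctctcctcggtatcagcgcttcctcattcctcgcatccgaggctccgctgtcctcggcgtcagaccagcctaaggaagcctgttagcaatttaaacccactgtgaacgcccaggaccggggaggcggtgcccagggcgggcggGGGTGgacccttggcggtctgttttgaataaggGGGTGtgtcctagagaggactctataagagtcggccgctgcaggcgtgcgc
Id2, chr12:25096093-25096342, minus strand: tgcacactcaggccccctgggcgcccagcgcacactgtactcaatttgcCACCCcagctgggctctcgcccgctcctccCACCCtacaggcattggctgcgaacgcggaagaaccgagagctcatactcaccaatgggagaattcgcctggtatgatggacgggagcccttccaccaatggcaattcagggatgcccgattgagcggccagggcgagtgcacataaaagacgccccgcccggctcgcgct
Klf2, chr8:72318812-72319061, plus strand: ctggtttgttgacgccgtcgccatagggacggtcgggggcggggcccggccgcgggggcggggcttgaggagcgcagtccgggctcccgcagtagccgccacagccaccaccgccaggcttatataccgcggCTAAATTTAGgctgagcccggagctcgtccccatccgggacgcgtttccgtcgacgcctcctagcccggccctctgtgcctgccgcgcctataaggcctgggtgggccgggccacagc
CACCC or GGGTG was found at 2 places in *Id3*, 2 in *Id2* and 1 in *Klf2*, and 52.0% of all 32851 RefSeq promoter windows of this length hold it on either strand. The MEF2 motif was found once, in *Klf2*, 118 bases before the start, and 0.508% of all windows hold it. Of the 10 factors 9 matched promoter windows, 17 in all because some genes have several starts. Some windows of *Lef1* and of *Zeb2* overlap one another, so the 17 are not separate counts. An E-box (CANNTG, its own reverse complement) was in 8 of the 17, against 66.2% of all windows. CACCC or GGGTG was in 12 of the 17, against 52.0%. The windows of *Id3* and *Id2* each held 18 CpG, more than 78.3% of all windows, and that of *Klf2* held 29, more than 93.2%. A match is a description of the letters and was not measured as binding here.

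*Tcf7* and *Bcl6* were lower in both libraries labelled Kdm6b-deficient. TCF-1, the product of *Tcf7*, is needed for T cell commitment and for the self-renewal of memory T cells, and BCL6 is a repressor that opposes BLIMP-1. *Tcf7* (Entrez 21414, chromosome 11, 52246527 to 52283383) reached 51.2 and 49.6 FPKM in the controls and 46.3 and 27.4 FPKM in those labelled Kdm6b-deficient. Replicate 1 of that label was close to the controls and replicate 3 was far below them. A log2 difference of −0.49 resulted (standard error 0.28, 95% interval −1.19 to 0.21, adjusted p = 0.755 in limma), and it was −0.12 without replicate 3 of that label, −0.85 without replicate 1 of that label and −0.14 with the epithelial level as a covariate (adjusted p = 0.972). The T cell markers had the same order of groups, and with the libraries scaled to *Cd3d*, *Cd3e*, *Cd3g* and *Ptprc* the value of *Tcf7* was −0.10, under a median of 0.36 over all genes with that scaling. *Tcf7* overlaps *Skp1* in the annotation, and whether the counting used strand was not given in the sources used here.

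*Bcl6* (Entrez 12053, chromosome 16, 23965050 to 23988866) reached 2.09 and 2.76 FPKM in the controls and 1.79 and 1.24 FPKM in those labelled Kdm6b-deficient. The highest library of that label lay just under the lower control. This was a log2 difference of −0.45 (standard error 0.33, 95% interval −1.28 to 0.38, adjusted p = 0.776 in limma), which was −0.69 with a pseudocount of 0.01, −0.65 after quantile normalization and −0.20 with the scaling to *Cd3* genes and *Ptprc*. Between 49 and 131 fragments stood behind each value, a counting error of 8.73 to 14.3%. *Bcl6* overlaps the predicted gene *Gm31527*.

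*Lef1*, *Id2* and *Prdm1* separated the replicate numbers and not the groups. LEF-1 is the partner of TCF-1 from the same family, ID2 is the inhibitor of E proteins on which innate-like and effector lymphocytes depend, and BLIMP-1 is the repressor of terminal effector and plasma cells that is also known for residency. *Lef1* (Entrez 16842, chromosome 3, 131110297 to 131224357) reached 8.0 and 5.66 FPKM in the controls and 8.52 and 1.98 FPKM in those labelled Kdm6b-deficient. Replicate 3 of that label was the one low library, with about 49 to 77 fragments, and replicate 1 was the highest of the 4. Its log2 difference of −0.54 (standard error 0.59, 95% interval −2.01 to 0.93, adjusted p = 0.834 in limma) became 0.30 without that library and −1.38 without replicate 1 of the same label.

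*Prdm1* (Entrez 12142, chromosome 10, 44437174 to 44528558) reached 17.1 and 12.1 FPKM in the controls and 18.2 and 8.78 FPKM in those labelled Kdm6b-deficient. *Id2* (Entrez 15902, chromosome 12, 25093799 to 25096092) reached 294 and 255 FPKM in the controls and 287 and 201 FPKM in those labelled Kdm6b-deficient. In both genes the 2 replicate 1 libraries lay above both replicate 3 libraries. The log2 difference of *Prdm1* was −0.17 (standard error 0.39, 95% interval −1.15 to 0.81, adjusted p = 0.925) and that of *Id2* −0.19 (standard error 0.24, 95% interval −0.78 to 0.40, adjusted p = 0.852), both from limma. With the libraries scaled to *Cd3* genes and *Ptprc* both values became 0.20, which is under the median that this scaling gives. Among all genes tested, 22.8% had both replicates 1 above both replicates 3, as 3 of the 8 tested factors had. *Cd4* and the sum of the plasma cell markers, given above, had that order too. So did *Cd3e*, *Cd3g*, *Cd247* and *Cd2* of the T cell markers, while *Cd3d*, *Ptprc*, *Cd8a* and *Lck* did not. CD4 T cells, which express *Lef1*, and plasma cells, which express *Prdm1*, are both outside the gate of the sort. The part of these cells in the values of *Lef1*, *Prdm1* and *Id2* was not tested.

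*Zeb2* and *Bach2* were at the low end of the range. ZEB2 is a repressor of terminally differentiated, circulating effector cells, and BACH2 restrains effector genes in naive and memory cells. *Zeb2* (Entrez 24136, chromosome 2, 44983512 to 45117442) reached 2.01 and 1.64 FPKM in the controls and 1.89 and 2.37 FPKM in those labelled Kdm6b-deficient. The groups overlapped, at a log2 value of 0.15 (standard error 0.32, 95% interval −0.65 to 0.94, adjusted p = 0.917 in limma) that was −0.05 after quantile normalization, and the annotation places *Zeb2os* and *Mir5129* in the same region. *Zeb2* was lowest in control replicate 3 and highest in replicate 3 labelled Kdm6b-deficient, as was the sum of dendritic or myeloid markers. What part other cells had in the *Zeb2* values was not tested. *Bach2* (Entrez 12014, chromosome 4, 32238413 to 32586109) reached 0.77 and 0.78 FPKM in the controls and 1.37 and 0.55 FPKM in those labelled Kdm6b-deficient. A single library reached 1 FPKM, so *Bach2* was not tested, and its highest value stood on about 164 fragments because the transcript is long. It shares its locus with *Bach2os*.

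**Figure D3:**
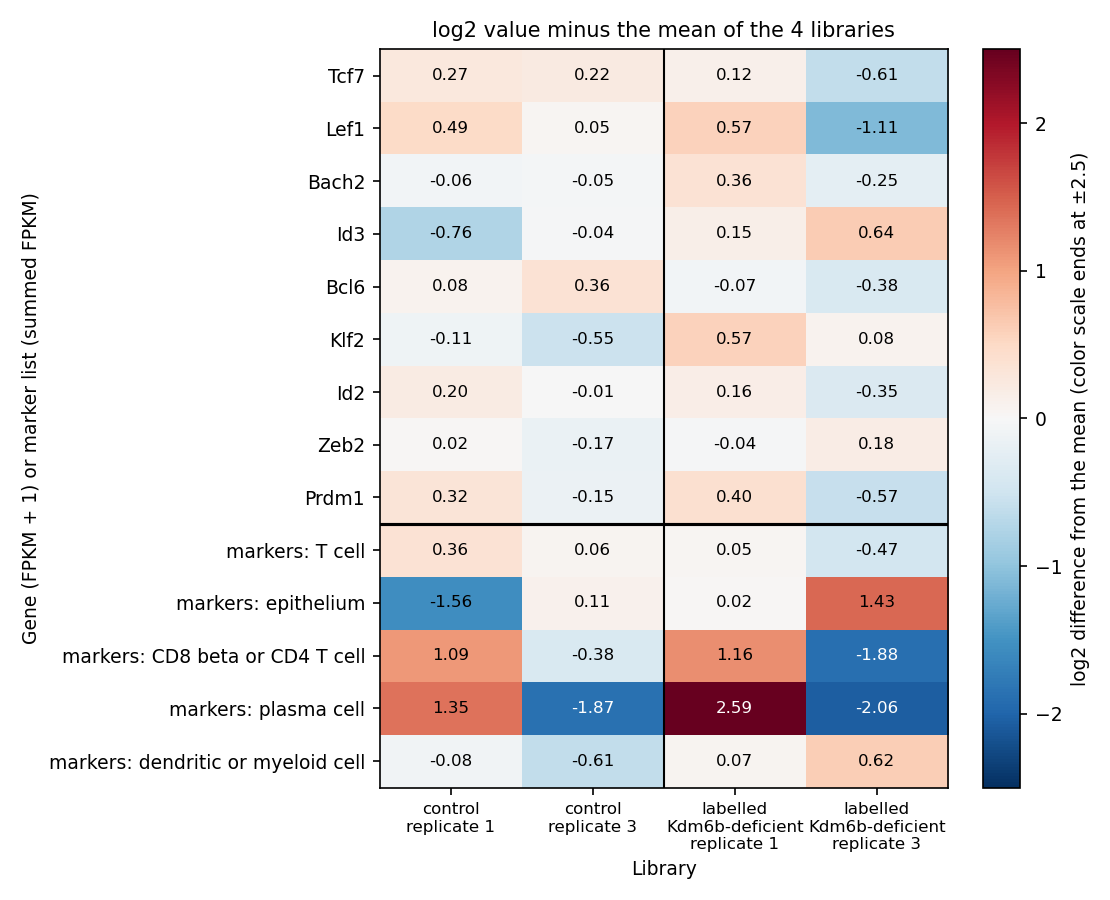
Log2 difference of each library from the mean of the 4 libraries (color, ending at ± 2.5, and printed value) for the 9 measured factors (log2 of FPKM + 1) and for 5 marker lists (log2 of summed FPKM). *Id3* is lowest in control replicate 1 (−0.76) and highest in replicate 3 labelled Kdm6b-deficient (0.64), as are the epithelial markers (−1.56 and 1.43). *Lef1* and *Prdm1* are lowest in replicate 3 labelled Kdm6b-deficient (−1.11 and −0.57), where the T cell markers (−0.47) are lowest too. The sum of *Cd4* and *Cd8b1* is also lowest there (−1.88) and is mostly *Cd4*, while *Cd8b1* alone is lowest in control replicate 1.

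The ratios of the paired factors were close in some libraries of different groups. The ratio of *Id2* to *Id3* FPKM was 3.92 and 2.05 in the controls and 2.03 and 1.01 in those labelled Kdm6b-deficient, so control replicate 3 and replicate 1 labelled Kdm6b-deficient were nearly equal. The ratio of *Tcf7* to *Lef1* was 6.40 and 8.77 in the controls and 5.44 and 13.9 in those labelled Kdm6b-deficient, and both controls lay between these. The sum of *Id2* and *Id3* varied less, at 369 and 379 FPKM in the controls and 429 and 399 FPKM in those labelled Kdm6b-deficient, both above both controls. The E protein genes, whose products the Id proteins hold, summed to far less. *Tcf3*, *Tcf4* and *Tcf12* together had 32.0 and 26.6 FPKM in the controls and 32.6 and 26.2 FPKM in those labelled Kdm6b-deficient.

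Of the 72 related genes, set out in 8 lists of factors and target genes, 68 were tested. In limma 0 had an adjusted p under 0.05 and 8 had an unadjusted p under 0.05, beside 5.35% of all genes tested. The groups did not overlap in 10 higher and 18 lower genes (18.4% and 18.6% of all genes), the median log2 fold change was −0.18 as among the factors, and 48 values were negative and 20 positive. Both replicates 1 were above both replicates 3 in 32 of the 68, and the reverse held in 3, beside 22.8% and 22.3% of all genes tested.

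**Figure D4:**
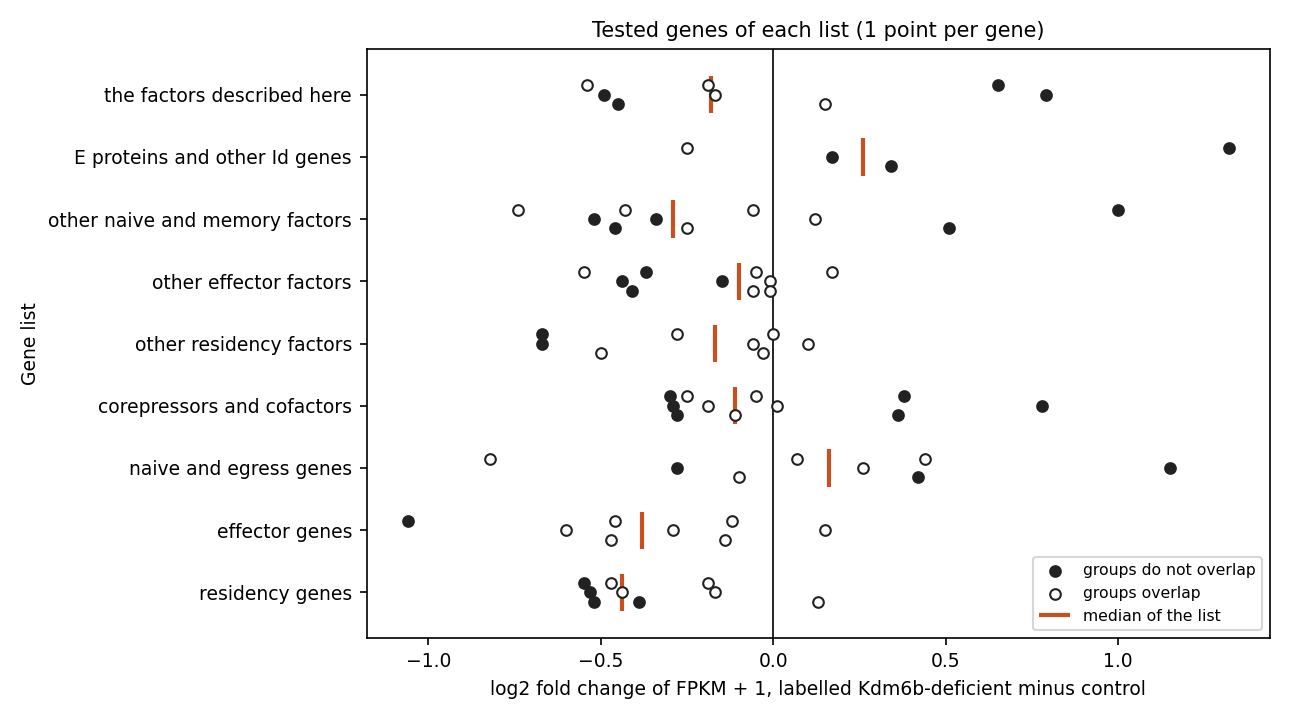
Log2 fold changes (labelled Kdm6b-deficient minus control, log2 of FPKM + 1), 1 point per tested gene, for the factors described here and the 8 related lists, filled where the 2 libraries of each group do not overlap, with the median of each list as an orange bar. The medians run from −0.44 for the residency genes to 0.26 for the E proteins and other Id genes, and no point was called by limma with group as the only term.

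In the list of E proteins and other Id genes, 3 of 4 tested genes were higher in both libraries labelled Kdm6b-deficient, beside 18.4% of all genes, with a median of 0.26. *Id1*, which encodes another inhibitor of E proteins, had 12.5 and 41.1 FPKM in the controls and 43.2 and 79.5 FPKM in those labelled Kdm6b-deficient. Its difference of 1.32 on the log2 scale (standard error 0.58, adjusted p = 0.755 in limma) went with the epithelial markers, lowest in control replicate 1 and highest in replicate 3 labelled Kdm6b-deficient, and the part of epithelial RNA in *Id1* was not tested. *Tcf3*, which encodes the E protein E2A, had 9.81 and 7.02 FPKM against 11.3 and 10.4, a log2 fold change of 0.34. *Id4* was listed at 0 or 0.14 FPKM.

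Among the 10 tested other naive and memory factors, 3 values were positive and 7 negative (median −0.29), with 2 higher and 3 lower without overlap (18.4% and 18.6% of all genes). *Klf3*, a repressor of the KLF family, had 5.26 and 5.68 FPKM in the controls and 13.7 and 10.4 FPKM in those labelled Kdm6b-deficient. Here the groups lay further apart than the libraries within them, and the part of other cells in the *Klf3* values was not tested. That was a log2 difference of 1.0 (standard error 0.28, 95% interval 0.31 to 1.69, unadjusted p = 0.0127, adjusted p = 0.755 in limma). *Foxo1*, the activator of *Klf2* and *Il7r*, had 32.5 and 22.8 FPKM in the controls and 22.8 and 10.9 in those labelled Kdm6b-deficient (log2 fold change −0.74, adjusted p = 0.755). *Foxo1* thus had a negative value where *Klf2* had a positive one.

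The effector and residency lists had more negative values than positive ones. Of the other effector factors 9 of 10 values were negative (median −0.10), 4 of them lower without overlap (18.6% of all genes), and *Batf* (−0.55) and *Stat4* (−0.44) had the largest differences. Of the other residency factors 6 of 8 were negative (median −0.17). *Nr4a2*, an early response factor of T cell receptor signalling, had 218 and 231 FPKM in the controls and 159 and 124 in those labelled Kdm6b-deficient, a difference of −0.67 on the log2 scale (standard error 0.20, unadjusted p = 0.0157, adjusted p = 0.755 in limma). *Runx3*, which programs cytotoxic and resident CD8 T cells, had 101 and 69.1 FPKM against 67.6 and 40.3, also a difference of −0.67 (standard error 0.32, adjusted p = 0.755), and narrowly separated groups. Both genes were lower in both libraries labelled Kdm6b-deficient.

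The lists of target genes hold the most negative difference, in *Gzmb*. *Gzmb*, the cytotoxic protease granzyme B, had 3378 and 2488 FPKM in the controls and 1515 and 1279 FPKM in those labelled Kdm6b-deficient. On the log2 scale this was −1.06 (standard error 0.29, unadjusted p = 0.0128, adjusted p = 0.755 in limma), and 0.441% of all genes tested were below −1. Of the effector genes 7 of 8 values were negative (median −0.38), with *Ccl5*, a chemokine of effector and memory cells, at −0.60. Of the residency genes 8 of 9 were negative (median −0.44), 4 of them lower without overlap beside 18.6% of all genes, with *Rgs2* at −0.55 (unadjusted p = 0.0265) and *Cd244a* at −0.53. The naive and egress genes had 5 positive and 3 negative values (median 0.16), from *Igfbp4* at 1.15 (1.33 and 2.41 FPKM against 3.87 and 7.05) to *Slamf6* at −0.82 (30.1 and 18.7 FPKM against 26.8 and 6.03). *Slamf6* is a surface marker of TCF-1-positive T cells. The log2 fold changes of the 8 T cell markers, from −0.54 to −0.33, were negative as most of those of the effector and residency factors and genes were, and what part T cell content had in these lists was not tested.

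Corepressors and cofactors, through which TCF-1, LEF-1, BLIMP-1 and BCL6 act, had 4 positive and 7 negative values (median −0.11), 3 higher and 3 lower without overlap (18.4% and 18.6% of all genes). *Ctbp2* had 2.57 and 3.13 FPKM in the controls and 4.95 and 6.30 in those labelled Kdm6b-deficient (log2 fold change 0.78, standard error 0.31, unadjusted p = 0.047, adjusted p = 0.755 in limma). *Ctbp2* and *Igfbp4* were lowest in control replicate 1 and highest in replicate 3 labelled Kdm6b-deficient, as the epithelial markers were. The part of epithelial RNA in these 2 genes was not tested. *Tle1*, a Groucho corepressor of TCF-1 and LEF-1, was low throughout at 0.38 to 1.13 FPKM, with a log2 fold change of 0.38.

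**Figure D5:**
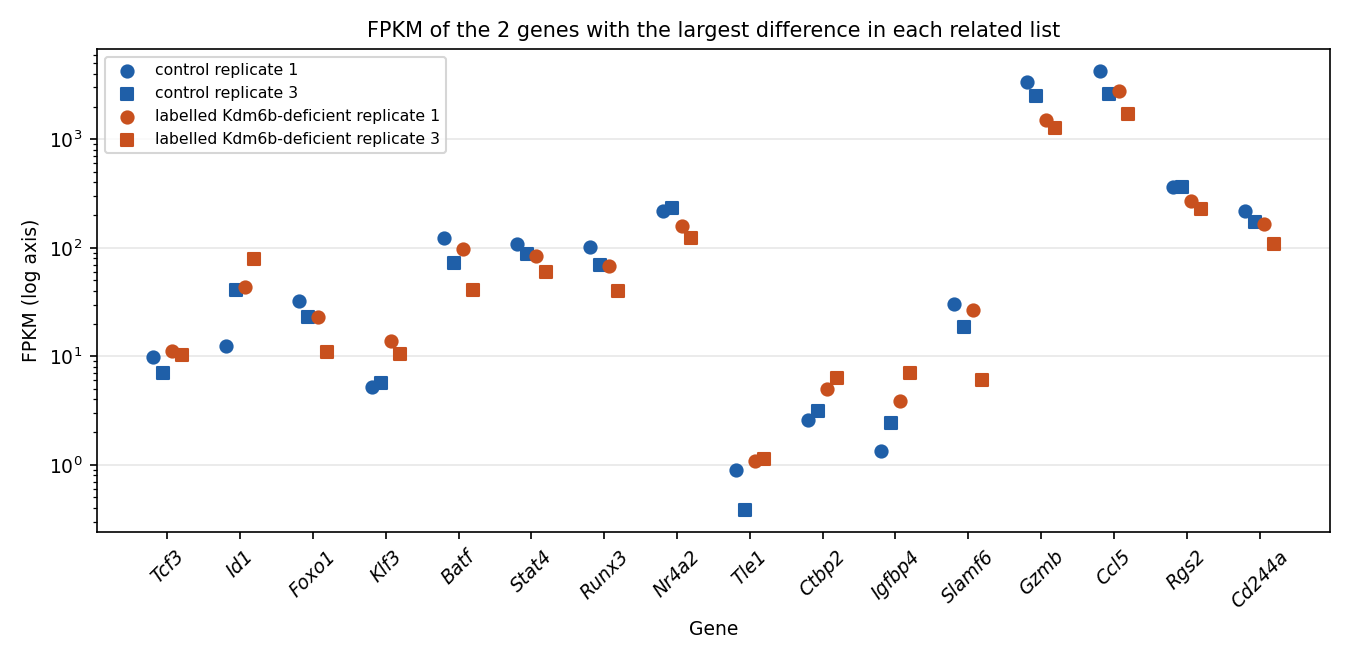
FPKM (log axis) of the 2 tested genes with the largest log2 fold change in each related list, 1 point per library, in the colors and shapes used for the factors. *Klf3*, *Id1*, *Ctbp2* and *Igfbp4* have both libraries labelled Kdm6b-deficient above both controls, and *Gzmb*, *Nr4a2*, *Runx3* and *Rgs2* have both below.

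The gene of the related lists most like each factor over the 4 libraries was found by the root mean square difference of log2(FPKM + 1), each gene centred on its own mean. *Prdm1* was closest to *Cxcr6* (0.016) and *Id2* to *Tcf12* (0.036). *Tcf7* was closest to *Fosl2* (0.088), *Zeb2* to *Ehmt2* (0.111), *Bcl6* to *Rgs2* (0.122), *Id3* to *Ctbp2* (0.194), *Lef1* to *Slamf6* (0.195) and *Klf2* to *Tcf3* (0.206). Small values are easy to reach with 4 libraries and 68 genes, and the libraries share the marker differences given above.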

How the data were processed

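RNA-seq of sorted TCRαβ+CD8αα+ IELs was used, 2 libraries per genotype. The authors mapped clean reads to mm10 (GRCm38.p5 in the submitters' processing notes) with HISAT and Bowtie2 2.2.5 and quantified genes with RSEM 1.2.8. The deposited values are FPKM, scaled by the authors to transcript length and mapped fragments, and no further scaling was applied here. The gene annotation, strandedness and HISAT version were not given in the sources used here. Entrez identifiers were matched to RefSeq on GRCm38.p6, with symbols for 18467 of 19339 genes.

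The 12009 genes that reached 1 FPKM in 2 or more libraries were tested on log2(FPKM + 1) in limma 3.58.1 under R 4.3.3, by lmFit and then eBayes (trend on, prior degrees of freedom 3.52), p-values being adjusted over all of them by Benjamini-Hochberg, after the model was tested on simulated data. The simulation gave every gene the same spread and used changes larger than that of any factor. It therefore does not show that differences as small as those of the factors would be found. A fold change on this scale understates that of low genes. Depth was estimated from low FPKM values of 600 to 2500 base transcripts, which fall on multiples of 1 fragment once length is shortened by 150 bases. Relative to control replicate 1 it was 0.988 in control replicate 3 and 1.01 and 0.815 in replicates 1 and 3 labelled Kdm6b-deficient. Fragment numbers and counting errors per gene rest on these estimates and cover counting error only.

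The factors and all lists were chosen with earlier results of these data known. Named genes were the factors, the 2 tested genes with the largest absolute log2 fold change in each related list, the gene most like each factor, and *Kdm6b*. *S1pr1*, *Id4*, *Tcf4*, *Il7r*, *Ccr7*, *Tox* and the marker genes were named outside that rule, after their values were seen. Alternatives were 2 pseudocounts, 2 filters, 3 scalings, limma without a trend, an epithelial covariate, a replicate block and leaving out each library. *Zfp683*, single-cell and CUT&Tag data were not analysed here. Promoter windows came from RefSeq and were handled in Python 3.11.15 with pandas 2.3.3.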

Additional observations from a re-analysis of the deposited data

How the results depend on the processing

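Adjusted p-values of the factors from limma stayed at or above 0.05 in every alternative but 1, wherever a factor was tested. The filter at 5 FPKM left 5 factors to test, without *Klf2*, *Bcl6* and *Zeb2*. The labels give replicate numbers 1 and 3 to both groups, and no source says that equal numbers mark pools prepared together. The deviations of same-numbered libraries from their group means correlated at 0.56 (Spearman 0.542, across 12009 genes). The replicate number as a block also leaves 1 residual degree of freedom. In limma with that block 1019 genes were called (886 higher, 133 lower), among them 1 factor, *Id3* (log2 fold change 0.79, adjusted p = 0.00701). Of the related lists 11 genes were called, namely *Gzmb* (adjusted p = 0.0024), *Id1*, *Klf3*, *Igfbp4*, *Foxo1*, *Tox*, *Runx3*, *Nr4a2*, *Ccl5*, *Rgs2* and *Cd244a*, with adjusted p up to 0.0486. With the epithelial level as a covariate, a fit that leaves 1 residual degree of freedom, 108 genes and 1 gene of the related lists (*Ccr7*) were called, and 1 factor, *Klf2*, was beyond a log2 fold change of 1. In that fit *Lef1* was 0.41, *Id2* 0.14, *Prdm1* 0.49 and *Kdm6b* 0.14. Scaling to *Cd3* genes and *Ptprc* moved the median of all genes to 0.36 and put 1 factor beyond 1, *Id3* at 1.18, with *Id2* at 0.20, *Prdm1* at 0.20 and *Kdm6b* at 0.19, all below that median. Quantile normalization gave −0.05 for *Zeb2*. Pseudocounts of 0.1 and 0.01 put 1381 and 1451 genes beyond 1, against 797, the *Cd3* and *Ptprc* scaling 1434, the covariate 507 and leaving out 1 library 341 to 1489. The causes of these shifts were not tested.

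Leaving out 1 library, the lone library of a group was assumed to vary like the other group. Factors beyond 1 then numbered 0 to 2 and factors without overlap 5 to 8, the most (8) without replicate 1 labelled Kdm6b-deficient, where *Lef1* (−1.38) and *Id3* (1.03) were beyond 1. Of all genes, 57.5 to 78.7% did not overlap in these comparisons of 1 library with 2. Log2 fold changes ranged from −1.38 to 0.30 for *Lef1*, −0.45 to 0.07 for *Id2*, −0.65 to 0.32 for *Prdm1* and −0.52 to 0.16 for *Kdm6b*. They ranged from −0.85 to −0.12 for *Tcf7*, 0.43 to 1.15 for *Id3*, −0.61 to −0.29 for *Bcl6* and 0.41 to 0.90 for *Klf2*. No factor was called in these fits. Counting error reached 14.3% for *Bcl6*, 14.2% for *Lef1* and 13.7% for *Bach2*, each in replicate 3 labelled Kdm6b-deficient.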
